A study of Mus musculus with 3 samples.

Results

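The Hox genes of the mouse were followed across nuclei of brain neurons that project to the lumbar spinal cord. They were taken as every gene symbol made of Hox, a cluster letter from a to d and a number, and nothing else, which gave 39 of the 32285 genes in the files. The data are 3 libraries of single nuclei (10x Genomics), labelled biological replicates 1, 2 and 3 of 1 group of uninjured C57BL/6 mice, and there is no treated group. Neurons labelled by retrograde transport from the lumbar cord were dissected from sagittal brain slices under fluorescence, frozen as tissue, and their nuclei were then sorted by flow cytometry. The sources used here give neither the tracer nor the age and sex of the mice nor their number per library, so the p-values measure only the spread between these 3 libraries, which may in part be technical.

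Hox genes encode homeodomain transcription factors that give cells their position along the body axis of the embryo. They lie in clusters in which the order of the genes matches the order of their expression from front to back, and genes at the same place in different clusters are paralogs that share a number. Genes with low numbers are expressed furthest forward and pattern the hindbrain, genes with high numbers pattern the trunk and tail, and the midbrain and forebrain form in front of the Hox territory. Hox proteins bind DNA together with TALE cofactors of the Pbx, Meis and Pknox families. Hox RNA is known to persist in neurons of the adult hindbrain.

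On GRCm38 (GENCODE M21 annotation), the 11 genes of cluster A lie at chr6:52155590-52260880 on the minus strand. The plus strand holds the other clusters, with 10 genes of cluster B at chr11:96194316-96368256, 9 genes of cluster C at chr15:102921103-103036852 and 9 genes of cluster D at chr2:74668310-74765142. The genes are packed so closely that 11 of the 39 overlap another Hox gene on the same strand and 14 overlap a transcript on the opposite strand. Hoxd3 (chr2:74711927-74748442) and Hoxd4 (chr2:74711929-74729160) share exon bases. Hoxc5 (chr15:102967443-103017429) spans Hoxc6, Hoxc8 and Hoxc9 and shares exon bases with Hoxc10. Hoxa3 (chr6:52169062-52213336) spans Hoxa4, Hoxa5 and Hoxa6 and the antisense genes Hoxaas2 and Hoxaas3, and both Hoxb3 (chr11:96323326-96347930) and Hoxb2 (chr11:96350525-96354012) overlap the antisense gene Hoxb3os. How reads in such overlaps were counted is not given in the sources, so the level of each of these genes is uncertain to that extent.

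Start site sequences from RefSeq (GRCm38.p6) were matched for 22 of the 39 genes, in 24 windows of 250 bases before the start. Both strands were searched for TGATNNAT, to which Pbx and Hox proteins bind together, TGACAG, to which Meis proteins bind, the retinoic acid response element (AGGTCA and a second AGGTCA in the same direction after 5 other bases), and CCAAT, the box bound by NF-Y. These 3 windows are shown because their genes have low paralog numbers and were named below, and because no annotated exon falls in them. They cover chr2:74721728-74721977 (plus strand) before the RefSeq start of Hoxd4, chr6:52164832-52165081 (minus strand) before Hoxa2 and chr11:96318017-96318266 (plus strand) before Hoxb4, each written 5′ to 3′ on the strand of the gene with motif matches in capitals. The start used for Hoxd4 is an internal one, so its window lies inside the GENCODE span of Hoxd4 given above and inside Hoxd3.
Hoxd4: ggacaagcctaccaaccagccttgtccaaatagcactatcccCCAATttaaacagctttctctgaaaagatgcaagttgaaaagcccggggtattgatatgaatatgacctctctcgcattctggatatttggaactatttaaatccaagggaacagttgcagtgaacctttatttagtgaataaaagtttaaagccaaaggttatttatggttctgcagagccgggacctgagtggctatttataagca
Hoxa2: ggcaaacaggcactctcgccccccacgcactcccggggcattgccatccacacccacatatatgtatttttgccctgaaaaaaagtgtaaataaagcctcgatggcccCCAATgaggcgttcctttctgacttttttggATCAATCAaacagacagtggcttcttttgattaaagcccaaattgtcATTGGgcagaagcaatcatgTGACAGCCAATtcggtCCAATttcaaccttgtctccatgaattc
Hoxb4: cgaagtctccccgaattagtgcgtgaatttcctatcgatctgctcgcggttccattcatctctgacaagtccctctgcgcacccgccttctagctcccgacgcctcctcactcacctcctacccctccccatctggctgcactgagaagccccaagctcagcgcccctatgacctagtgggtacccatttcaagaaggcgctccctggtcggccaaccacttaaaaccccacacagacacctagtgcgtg
The Hoxa2 window holds TGATNNAT once on the opposite strand, TGACAG once and CCAAT at 4 places, 1 of them directly after TGACAG and 1 on the opposite strand. The Hoxd4 window holds CCAAT alone, and in the Hoxb4 window none of the 4 motifs was found. Among the 24 Hox windows, TGATNNAT was present in 4, against 7.68% of all 32851 windows of the same length, and TGACAG in 2, against 15.9%. CCAAT was present in 14, against 33.8%, and the retinoic acid element in none, against 0.00913%. The Hox windows also had a higher median ratio of observed to expected CpG, at 0.721 against 0.373 over all windows. A match is a stretch of letters and was not tested for binding.

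Limits of 1000 genes or more and 5% mitochondrial UMIs or less left 2679, 2769 and 3579 nuclei in replicates 1, 2 and 3, with a median of 8270, 19493 and 14388 UMIs (unique molecules). They were typed in order by CPM (UMIs of a gene divided by all UMIs of the nucleus and multiplied by 1000000), with at least 2 UMIs of the gate genes. Where a gate names several genes, their CPM were summed. Cortical nuclei had Tox at 300 CPM or more, and red nucleus nuclei (a midbrain motor centre) had Ttc6, Chst9 and Rreb1 summed to 150 or more. Hypothalamic nuclei had Sim1, or Ros1 and Rfx2 summed, at 150 or more, and hindbrain nuclei had Meis1 and Meis2 summed to 200 or more. This gave 4126 cortical, 332 red nucleus, 149 hypothalamic and 2782 hindbrain nuclei and left 1638 untyped. No Hox gene is in a gate, but Meis1 and Meis2 belong to the TALE cofactors of Hox proteins, so the hindbrain gate is not independent of the Hox pathway. Barcode sequences were shared by 3, 2 and 1 kept nuclei in the pairs of replicates 1 and 2, 1 and 3, and 2 and 3.

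Lhx4, Bcl11b, Pou4f1, Otp and Hcrt, markers outside the gates, were highest in the type they mark. Lhx4, a transcription factor of hindbrain reticulospinal neurons, averaged 25.4 CPM in hindbrain nuclei and 1.32 CPM in cortical nuclei, and Bcl11b, a factor of corticospinal neurons, averaged 209 CPM in cortical and 30.5 CPM in hindbrain nuclei. The midbrain factor Otx2 was at 0 in hindbrain nuclei. En1, a factor of the midbrain and rostral hindbrain, went the other way and was called higher in hindbrain than in cortical nuclei (given below). How many nuclei of the midbrain or the most rostral hindbrain are in the hindbrain type was not tested. Meis2, a gate gene of the hindbrain type, was also at 196 CPM in cortical nuclei. The order of the gates keeps only nuclei that meet the Tox gate out of the hindbrain type. Nuclei of cortical neurons below the Tox gate can still enter the hindbrain type, and how many did was not tested. Pou4f1, a factor of red nucleus neurons, averaged 17.6 CPM in red nucleus nuclei against 0.804 in cortical, 0.601 in hypothalamic and 1.26 CPM in hindbrain nuclei. Otp, a factor of hypothalamic neurons, averaged 30.7 CPM in hypothalamic nuclei and at most 0.255 CPM in the other gated types. Hcrt, the orexin peptide gene of the lateral hypothalamus, averaged 899 CPM in hypothalamic nuclei and was still read at 56.1 CPM in cortical, 76.8 CPM in red nucleus and 71.6 CPM in hindbrain nuclei; this marker of another type was read in every type. The part of RNA from other cells in the low Hox levels outside the hindbrain was not tested.

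Hox RNA was highest in the hindbrain nuclei. The 39 genes together reached 49.6, 57.6 and 59.6 CPM in replicates 1, 2 and 3 of the hindbrain nuclei (55.6 ± 5.29, SD, n = 3 libraries), from 1990 UMIs. Cortical nuclei read 7.73, 6.40 and 5.96 CPM (6.70 ± 0.925), from 631 UMIs. Every hindbrain library lay above every library of the other gated types. The ratio of hindbrain to cortical nuclei was 6.41, 9.0 and 10.0 within replicates 1, 2 and 3. Hypothalamic nuclei gave 16.4, 18.0 and 18.4 CPM (17.6 ± 1.09), but only 25 UMIs lay behind them, with an exact 95% Poisson interval of 11.5 to 26.2 CPM for the pooled level that covers counting error only. Red nucleus nuclei gave 11.5, 5.83 and 16.7 CPM (11.3 ± 5.45), from 54 UMIs. Every hypothalamic library lay above every cortical library, while the red nucleus libraries overlapped both ranges and could not be placed between them. Untyped nuclei, in which no gate was met, read 37.1, 40.6 and 52.4 CPM (43.3 ± 8.0), a range that overlaps that of the hindbrain libraries. Within replicates 1, 2 and 3 the ratio of hindbrain to untyped nuclei was 1.34, 1.42 and 1.14.

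**Figure D1:**
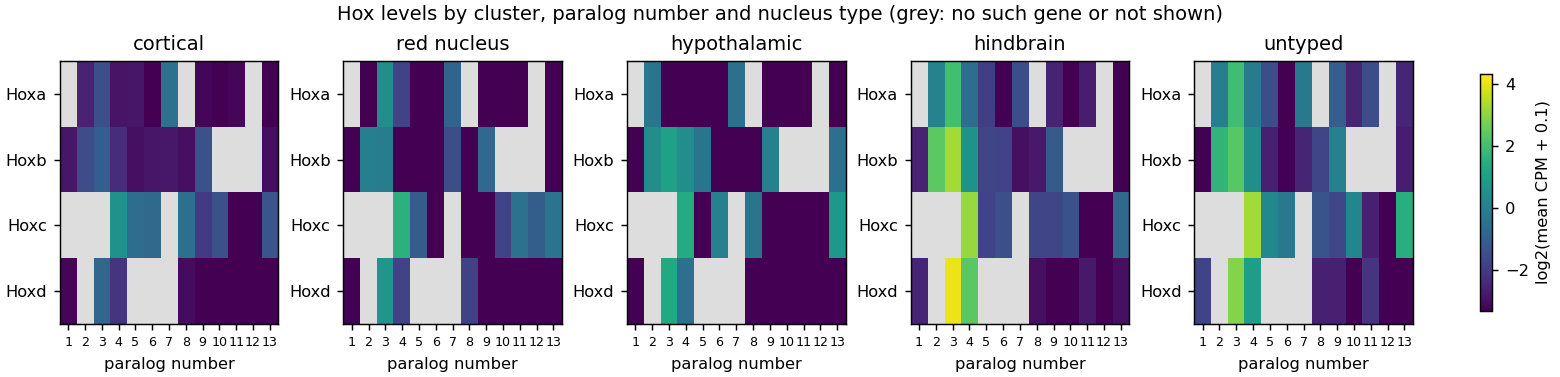
Heat maps of the mean level of each Hox gene over 3 libraries, coloured as log2(CPM + 0.1), with clusters A to D in rows and paralog numbers in columns, 1 panel for each type and for untyped nuclei. Grey marks places with no such gene or with none shown. High values sit in paralog numbers 2 to 4 of the hindbrain and untyped panels.

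The rise in the hindbrain lay in the genes with low numbers. Paralog groups 1 to 4 held 1890 of the 1990 Hox UMIs of hindbrain nuclei (95%, exact Clopper-Pearson 95% interval 93.9 to 95.9), against 309 of 631 in cortical nuclei (49.0%, 45.0 to 53.0). Intervals of this kind cover counting error only. Groups 1 to 4 together were 16.5 times as high in hindbrain as in cortical nuclei, and 13.5, 17.2 and 19.2 times within replicates 1, 2 and 3. Groups 5 to 13, the genes of the trunk and tail, showed no such gap. They read 4.49, 2.23 and 2.53 CPM in hindbrain nuclei (3.08 ± 1.23) and 4.39, 3.19 and 2.98 CPM in cortical nuclei (3.52 ± 0.760), and the ranges of the libraries overlapped. Untyped nuclei were higher for groups 5 to 13, at 12.1, 5.42 and 11.1 CPM (9.52 ± 3.59, 149 UMIs), above every hindbrain and cortical library.

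Within the low numbers, group 1 was nearly silent and groups 2, 3 and 4 carried the RNA. Group 1, whose genes act early in the embryonic hindbrain, had 10 UMIs over all hindbrain nuclei and a mean of 0.262 CPM. Group 2, the group that reaches furthest forward in the hindbrain, read 5.38, 6.26 and 6.76 CPM (6.13 ± 0.697, 220 UMIs). Group 3 read 26.3, 31.8 and 32.8 CPM (30.3 ± 3.53, 1089 UMIs), and group 4, which marks the caudal hindbrain and the neck, read 13.3, 17.0 and 17.2 CPM (15.8 ± 2.16, 571 UMIs). In cortical nuclei these groups averaged 0.323, 1.13 and 1.68 CPM, below every hindbrain library. Scaled by the length of merged exons, the summed hindbrain levels of groups 1, 2, 3 and 4 were 0.122, 2.02, 6.91 and 6.04 CPM per kb, so groups 3 and 4 stood closer per length than in CPM. Per kb of the whole gene, introns included, the sums were 0.105, 1.88, 0.937 and 1.48 CPM per kb, with group 2 highest in every library, so the order of groups 2 to 4 depends on the length used. That measure was chosen after seeing the data. Each of the groups 5 to 11 and 13 had between 3 and 20 hindbrain UMIs, and group 12 had none, which allows up to 0.0853 CPM (3 counts over the type).

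**Figure D2:**
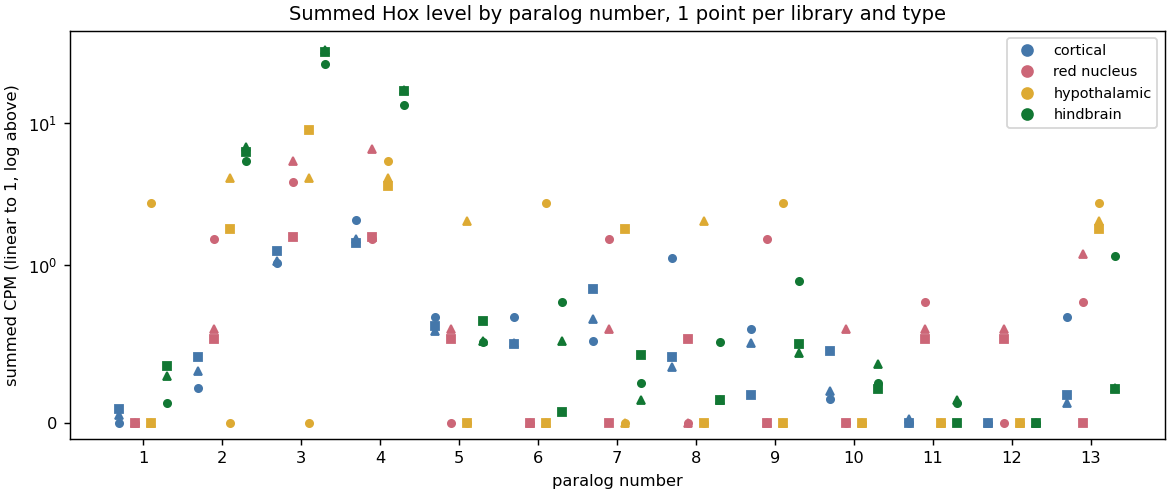
Summed level of each paralog group in CPM (y axis, linear up to 1 and logarithmic above) against paralog number (x axis), with 1 point per library, colour for the type and shape for the replicate. Hindbrain points leave the others at numbers 2, 3 and 4, and mix with them from 5 upwards.

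Of the 39 genes, 36 had a UMI in a kept nucleus, and Hoxd12, Hoxd10 and Hoxa6 had none. In hindbrain nuclei, 8 genes had at least 30 UMIs, 22 had 1 to 29 and 9 had none. Levels were tested by summing UMIs per library and type and fitting the 12 sums with the quasi-likelihood test of edgeR, with the library as a block. Calls needed an adjusted p under 0.05 (Benjamini-Hochberg over 16185 genes) together with a log2 fold change of at least 1 in size. The filter on low counts let 6 Hox genes through. It can be passed through the hindbrain sums alone, so the number of these 6 that were called describes them and not the 39.

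All 6 were called higher in the hindbrain against the mean of the other 3 types, a call made for 3.52% of all genes tested, while 1.29% were called lower. Against cortical nuclei all 6 were called higher as well (13% of all genes tested were higher and 8.41% lower), with a largest adjusted p of 1.7e-06 by edgeR's quasi-likelihood test. For each of the 6, every hindbrain library lay above all 9 sums of the other types. The share of all genes for which this holds was not computed. Hoxa5 and Hoxb6, not tested, also met it, on only 6 and 7 hindbrain UMIs. The 6 called genes are described by paralog number, from group 2 to group 4.

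Hoxb2, a group 2 gene needed for the facial motor nucleus, read 4.87, 4.75 and 5.94 CPM in hindbrain nuclei (5.19 ± 0.658), with the 3 libraries close together. In cortical nuclei it read 0.149, 0.328 and 0.280 CPM. Its log2 fold change was 3.78 against cortical nuclei and 2.78 ± 0.363 (SE) against the mean of the other types (edgeR adjusted p = 2.59e-05). Hoxa2, the other group 2 gene and the one with the window rich in motif matches, had few UMIs, at 0.513, 1.51 and 0.817 CPM in hindbrain nuclei (0.947 ± 0.511, 36 UMIs) and a mean of 0.0709 CPM in cortical nuclei. It had no UMI in red nucleus nuclei, so that the pooled hindbrain level was at least 1.66-fold higher there (3 counts over the type). Against hypothalamic nuclei, with 1 Hoxa2 UMI, the ratio of the pooled levels was 1.44 (exact 95% counting interval 0.243 to 58.6). No difference between these 2 types was shown for Hoxa2.

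Hoxd3, a group 3 gene with a part in forming the first neck vertebrae, had 619 hindbrain UMIs, the most of any Hox gene. It read 12.4, 18.6 and 19.5 CPM in hindbrain nuclei (16.9 ± 3.87) and 0.149, 0.699 and 0.560 CPM in cortical nuclei. Replicate 1 was the lowest hindbrain library and was still far above all cortical libraries. Red nucleus nuclei read 1.53, 0.530 and 2.39 CPM, while hypothalamic nuclei read 7.21 CPM in replicate 2 and 0 in the others. The log2 fold change was 4.61 against cortical nuclei and 3.63 ± 0.294 (SE) against the mean of the other types (edgeR adjusted p = 1.01e-07).

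Hoxb3, which acts with Hoxa3 in the motor neurons of the caudal hindbrain, read 10.6, 8.56 and 9.36 CPM in hindbrain nuclei (9.52 ± 1.05) and 0.595, 0.350 and 0.229 CPM in cortical nuclei. Its log2 fold change was 4.28 against cortical nuclei and 3.32 ± 0.313 (SE) against the mean of the other types (edgeR adjusted p = 6.21e-07). Hoxa3, also known for its part in the thymus and parathyroid, read 3.20, 4.60 and 3.94 CPM in hindbrain nuclei (3.91 ± 0.699) and 0.297, 0.218 and 0.280 CPM in cortical nuclei. Its log2 fold change was 3.50 against cortical nuclei. Against the mean of the other types it was called at an edgeR adjusted p of 0.000178, but the fitted size depends on the prior count because hypothalamic nuclei had no Hoxa3 UMI. Against hypothalamic nuclei the pooled hindbrain level was at least 1.90-fold higher (3 counts over the type).

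Hoxc4, a group 4 gene of the caudal hindbrain and cervical cord, had the smallest log2 fold change of the 6 against cortical nuclei and against red nucleus nuclei. It read 9.23, 7.62 and 9.51 CPM in hindbrain nuclei (8.79 ± 1.02), 1.93, 1.11 and 1.25 CPM in cortical nuclei, and 1.53, 1.59 and 5.38 CPM in red nucleus nuclei. Its log2 fold change was 2.26 against cortical nuclei and 1.98 ± 0.310 (SE) against the mean of the other types (edgeR adjusted p = 0.000172). Hoxd4, a retinoic acid responsive gene of the caudal hindbrain, read 2.43, 7.12 and 5.57 CPM in hindbrain nuclei (5.04 ± 2.39) and between 0.0744 and 0.175 CPM in cortical nuclei. Replicate 1 was low for Hoxd4 as it was for its neighbour Hoxd3, with which it shares exon bases. The Hoxd4 log2 fold change was 4.83 against cortical nuclei and 4.13 ± 0.435 (SE) against the mean of the other types (edgeR adjusted p = 2.39e-06). Hoxb4, best known in blood stem cells, read 0.769, 1.73 and 1.78 CPM in hindbrain nuclei (1.43 ± 0.570, 54 UMIs) against a mean of 0.0952 CPM in cortical nuclei. Red nucleus nuclei had no Hoxb4 UMI, and the pooled hindbrain level was at least 2.49-fold higher there (3 counts over the type). Hypothalamic nuclei had 2 Hoxb4 UMIs, and the ratio of the pooled levels was 1.08 (exact 95% counting interval 0.286 to 9.17). Hoxb4 was therefore not shown to be higher in hindbrain than in hypothalamic nuclei. Hoxa2 and Hoxb4 did not pass the filter on low counts.

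**Figure D3:**
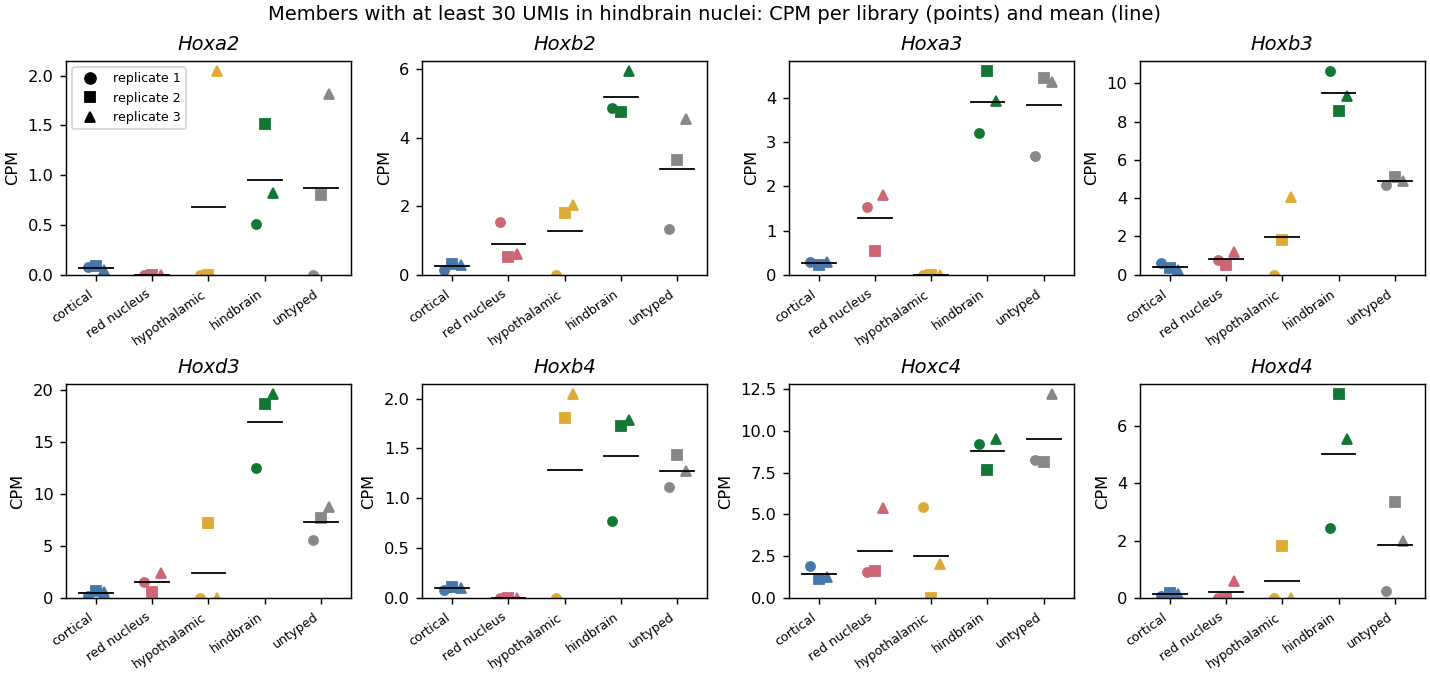
Level in CPM of the 8 Hox genes with at least 30 hindbrain UMIs, 1 panel each, with the types on the x axis. Circles, squares and triangles are replicates 1, 2 and 3 and the line is their mean. Hindbrain points stand above the cortical points in all 8 panels.

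Levels of different genes were also scaled by length. A UMI stands for a molecule, and whether scaling by length makes genes comparable was not tested. Per kb of merged exons, hindbrain levels were 4.02 ± 0.922 CPM per kb for Hoxd3 and 3.42 ± 0.396 for Hoxc4, which did not differ beyond their spread. Hoxb3 (2.24 ± 0.247), Hoxd4 (1.71 ± 0.809) and Hoxb2 (1.49 ± 0.189) followed in CPM per kb, with neighbours that overlapped in their spread. Hoxa3 (0.651 ± 0.116), Hoxb4 (0.556 ± 0.222) and Hoxa2 (0.533 ± 0.288) CPM per kb formed the lowest set and also overlapped. This order depends on the length used. Per kb of the whole gene, introns included, a measure chosen after seeing the data, Hoxb2 was highest at 1.49 ± 0.189 CPM per kb, Hoxd3 was at 0.462 ± 0.106 and Hoxa3 at 0.0884 ± 0.0158. The sources used here do not give whether introns were counted.

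Against the midbrain and the hypothalamus singly, fewer genes were called, on far fewer nuclei. Against red nucleus nuclei 5 of the 6 were higher (1.88% of all genes tested were higher and 2.3% lower), with edgeR log2 fold changes of 3.52 for Hoxd3, 4.54 for Hoxd4, 3.43 for Hoxb3, 2.57 for Hoxb2 and 1.54 for Hoxc4. For Hoxd4 only 1 red nucleus UMI was read, and the ratio of the pooled levels was 26.7 with an exact 95% counting interval of 4.74 to 1060. Hoxa3 had a log2 fold change of 1.60 and an edgeR adjusted p of 0.0886. Without replicate 2 only Hoxd3 and Hoxb3 were called, 2 of the 6.

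Against hypothalamic nuclei 3 of the 6 were higher (2.03% of all genes tested were higher and 2.13% lower). These were Hoxd3 at a log2 fold change of 2.75 (edgeR adjusted p = 0.0104), Hoxb3 at 2.25 (edgeR adjusted p = 0.0431), and Hoxa3 with the bound given above (edgeR adjusted p = 0.0486). Hoxb3 had 3 hypothalamic UMIs, and the ratio of its pooled levels was 4.39 (exact 95% counting interval 1.49 to 21.4). The others gave adjusted p-values of 0.0697 for Hoxd4, 0.166 for Hoxb2 and 0.0792 for Hoxc4 in the same edgeR test, on 1, 2 and 3 hypothalamic UMIs. Leaving out replicate 1, 2 or 3 left 0, 1 and 0 calls. Between red nucleus and cortical nuclei, 0 of the 6 were called in edgeR, where 13.3% of all genes tested were higher and 8.49% lower. In that contrast 1 gene, Hoxa3, had an unadjusted p under 0.05 (log2 fold change 1.89, edgeR adjusted p = 0.0521), and DESeq2 called 1.

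The genes with high numbers gave a different picture in cortical nuclei. For 7 genes the level pooled over libraries was higher in cortical than in hindbrain nuclei, all from group 5 upwards and named after their values were seen. The share of all genes with that direction was not computed. Hoxb7 and Hoxb13 rest on 3 cortical UMIs each, and Hoxc10 had library means of 0.270 CPM in cortical and 0.281 CPM in hindbrain nuclei, so its pooled direction did not hold over libraries. Hoxa7, Hoxc5, Hoxc6 and Hoxc8 had higher library means in cortical nuclei. Hoxc5 spans Hoxc6 and Hoxc8 on the same strand, so these genes may not be separate observations. Hoxc6 was nearly level in replicate 1, at 0.669 CPM in cortical and 0.641 CPM in hindbrain nuclei. Hoxa7 had 69 UMIs in cortical and 9 in hindbrain nuclei, at means of 0.636 and 0.255 CPM. Hoxc8, which acts in the motor columns of the brachial cord, had 45 and 6 UMIs, at means of 0.588 and 0.202 CPM. None of the 7 passed the filter on low counts. With no filter, 1 of the alternatives, edgeR called Hoxa7 (log2 fold change -1.81, adjusted p = 0.0129), Hoxc5 (-1.85, adjusted p = 0.0236), Hoxc8 (-1.97, adjusted p = 0.0234) and Hoxc6 (-1.82, adjusted p = 0.0317) lower in hindbrain than in cortical nuclei. DESeq2 gave adjusted p-values between 0.0845 and 0.230 for the same genes. In the edgeR fit with no filter, 1931 of 28421 genes were called lower and 2665 higher. Of the 33 Hox genes in that fit, 4 were lower and 9 higher. The UMIs of groups 5 to 13 were spread over cortical nuclei, 59 UMIs in 50 nuclei, 146 in 120 and 117 in 105 in replicates 1, 2 and 3, with at most 3 in 1 nucleus.

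Cortical nuclei were also the deeper ones, with a median of 12640, 26866 and 19455 UMIs against 7561, 15392 and 10950 in hindbrain nuclei, so each nucleus was thinned to 3000 UMIs before counting. After thinning, a Hox UMI was present in 134 of 863 hindbrain nuclei of replicate 1 (15.5%, exact Clopper-Pearson 95% interval 13.2 to 18.1). In replicate 2 it was 118 of 754 (13.1 to 18.4%), and in replicate 3 it was 181 of 1098 (16.5%, 14.3 to 18.8). The mean over libraries was 15.9% ± 0.521 (SD, n = 3) with 67 shallower nuclei left out, against 2.46% ± 0.516 in cortical nuclei with 49 left out. Every hindbrain share lay above every cortical share. Cortical nuclei were taken as the comparison because they lie outside the Hox territory, and how much of their Hox signal is free RNA was not tested. At full depth the shares were 41.6% and 11.6%.

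Red nucleus nuclei held a Hox UMI in 2.60% ± 1.25 and hypothalamic nuclei in 4.13% ± 1.99 after thinning, ranges that reach the cortical one. Untyped nuclei, with 293 left out as too shallow, had 13.4% ± 4.10. By number, groups 1 to 4 gave 15.2% of hindbrain and 1.26% of cortical nuclei. Groups 5 to 13 gave 0.861% and 1.23%, so the hindbrain share of these genes was not above the cortical one. Untyped nuclei gave 2.93% ± 2.32 for groups 5 to 13, with libraries from 0.280 to 4.59%. In hindbrain nuclei group 2 gave 2.32%, group 3 gave 9.69% and group 4 gave 4.68%, shares that are not scaled for gene length.

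**Figure D4:**
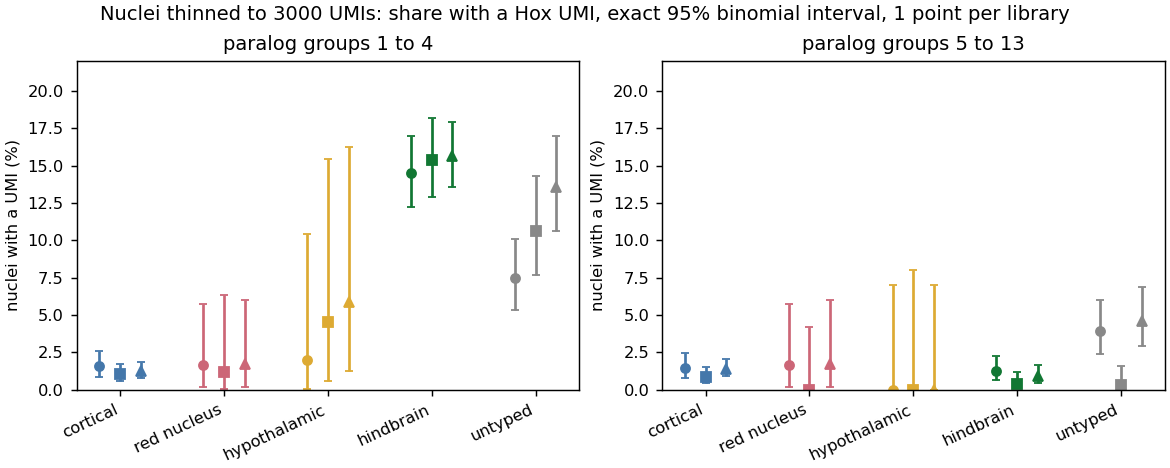
Percent of nuclei with a Hox UMI after thinning each nucleus to 3000 UMIs (y axis), by type (x axis) and replicate, for paralog groups 1 to 4 (left) and 5 to 13 (right). Bars are exact 95% binomial intervals. Hindbrain nuclei stand near 15% on the left, and on the right their intervals overlap those of cortical nuclei.

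Most single hindbrain nuclei showed little Hox RNA. At full depth 1632 of 2782 hindbrain nuclei had no Hox UMI, 678 had 1, 271 had 2 and 201 had 3 or more, with 15 as the highest. UMIs of 2 or more different Hox genes were found in 393 nuclei (14.1%). Neighbouring groups were read together in part of the nuclei. After thinning, 29 of 125 nuclei with group 4 also had group 3 (23.2%), against 9.76% of all hindbrain nuclei. Of 64 nuclei with group 2, 11 also had group 3 (17.2%) and 4 had group 4. Of 24 nuclei with a gene of groups 5 to 13, 1 also had group 3. Nuclei of all libraries and subgroups are pooled in these counts, and no test was made.

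Hindbrain nuclei were divided by 10 sets of marker genes, none of them Hox genes, into subgroups named by their markers, and 857 nuclei stayed ungrouped. Summed Hox RNA was low in nuclei with Ebf1 and Prdm6 and not detected in the few noradrenergic nuclei, and most other subgroups overlapped in their libraries. Nuclei with Zfhx3, Htr2c and Glra1 (190 nuclei) read 70.0, 81.2 and 76.4 CPM in replicates 1, 2 and 3, and those with Pard3b (313 nuclei) read 59.8, 89.8 and 65.3 CPM. Nuclei with Chrm2, a muscarinic receptor (263 nuclei), read 48.6, 54.5 and 66.2 CPM, and those with Reln and Nxph1 (282 nuclei) read 50.6, 79.0 and 65.1 CPM. The ranges of these 4 subgroups overlap. Nuclei with Angpt1 and Col25a1 (284 nuclei) read 63.0, 114.9 and 110.0 CPM (96.0 ± 28.6), and the small subgroup with Tfap2a, Mab21l2 and Ano1 (72 nuclei) read 75.7, 139.6 and 82.3 CPM (99.2 ± 35.1). Nuclei with Ebf1 and Prdm6 (406 nuclei) read only 18.2, 5.97 and 13.9 CPM (12.7 ± 6.23), below every library of these 6 subgroups and, at the lowest, within the range of the cortical libraries.

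The nuclei with Ebf1 and Prdm6 were low in each Hox gene that could be tested. The 6 subgroups with at least 20 nuclei in every library were fitted together with the edgeR quasi-likelihood test, each against the mean of the other 5, over 11433 genes. Hoxd3, Hoxd4, Hoxb3, Hoxb2 and Hoxc4 passed the filter, which can be passed through the sums of a single subgroup. All 5 were called lower in the subgroup with Ebf1 and Prdm6 (1.58% of all genes tested were lower and 1.51% higher). That number describes these 5 genes and not all Hox genes. Hoxd3 read 1.22, 1.49 and 3.22 CPM there, against means of 15.2 to 30.9 CPM in the other 5, and fell by 3.48 ± 0.301 (SE) on the log2 scale (edgeR adjusted p = 5.31e-10). Hoxd4 read 2.43, 0 and 1.07 CPM and fell by 3.39 (edgeR adjusted p = 0.000252). Hoxc4 read 4.86, 1.12 and 1.07 CPM and fell by 2.63 (edgeR adjusted p = 1.2e-05). Group 2 and group 3 genes of cluster B were low too. Hoxb2, at 0, 0.373 and 1.07 CPM, was called (edgeR adjusted p = 0.000193) on 3 UMIs, and the ratio of its pooled level in the other 5 subgroups to this one was 10.8 (exact 95% counting interval 3.57 to 53.0). Hoxb3 read 6.08, 0.373 and 3.75 CPM and fell by 2.17 (edgeR adjusted p = 0.00103). Without replicate 2 its fall was 1.37 and its adjusted p in edgeR was 0.0605.

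The share of nuclei with a Hox UMI was low in the same subgroup. After thinning to 3000 UMIs, a Hox UMI was present in 15 of 400 nuclei with Ebf1 and Prdm6 (3.75%, exact Clopper-Pearson 95% interval 2.11 to 6.11) and in 70 of 279 with Angpt1 and Col25a1 (25.1%, 20.1 to 30.6), with 15.4 to 19.4% in the other 4 subgroups of the fit. Lhx4 was low in the former as well, at 3.63 ± 3.21 CPM against means of 31.7 to 47.3 CPM in the other 5. Slc17a6, the vesicular glutamate transporter of brainstem neurons, was at 117 ± 23.6 CPM, Otx2 was at 0, and the summed cortical markers were at 47.3 CPM, within the 40.2 to 78.4 CPM of the grouped nuclei. None of 12 factors of rostral identity, Otx2, En1 and En2 among them, passed the filter of the subgroup fit, so none was tested there. Whether the low Lhx4 and the low Hox levels go together for a shared reason was not tested.

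In nuclei with Angpt1 and Col25a1, 3 of the 5 tested genes were called higher (1.28% of all genes tested were higher and 1.01% lower). Hoxd3 read 18.2, 31.9 and 42.5 CPM there, a log2 fold change of 1.27 ± 0.193 (SE, edgeR adjusted p = 2.08e-05). Hoxb3 read 14, 26 and 22 CPM, a log2 fold change of 1.45 (edgeR adjusted p = 0.00289), and Hoxc4 read 14, 15.9 and 16.1 CPM, a log2 fold change of 1.07 (edgeR adjusted p = 0.0142). The mean to which they were compared includes the low subgroup with Ebf1 and Prdm6. When that subgroup was left out, an alternative chosen after seeing the data, only Hoxb3 was called (1.04, edgeR adjusted p = 0.0188), while Hoxd3 gave 0.61 (adjusted p = 0.0414) and Hoxc4 0.56 (adjusted p = 0.266). Without replicate 2 or without replicate 3, Hoxb3 and Hoxc4 were not called. Of the remaining subgroups in the fit, none had a called Hox gene in edgeR, where 0.446%, 1.25%, 0.691% and 0.516% of all genes tested were called higher and 0.131%, 1.32%, 0.0437% and 0.534% lower in those with Zfhx3, Pard3b, Chrm2 and Reln. At an unadjusted p under 0.05 they had 2, 4, 0 and 1 of the 5 genes. Hoxd3 in nuclei with Zfhx3 had an edgeR adjusted p of 0.0125 and missed the limit on size, at a log2 fold change of 0.96. Without replicate 3, Hoxd3 was also called higher in nuclei with Reln and Nxph1 (1.01, edgeR adjusted p = 0.0495), where with all libraries it gave 0.69 (adjusted p = 0.0638).

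**Figure D5:**
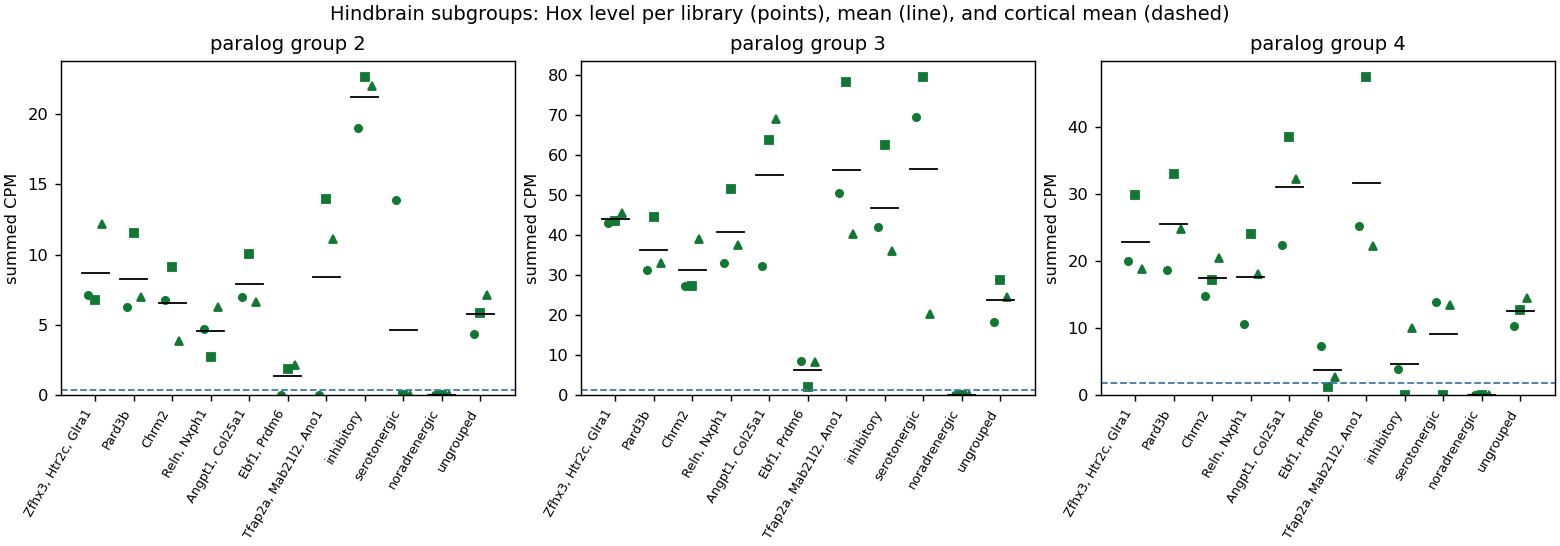
Summed level in CPM of paralog groups 2, 3 and 4 (1 panel each) in 11 subgroups of hindbrain nuclei, ungrouped included. Circles, squares and triangles are replicates 1, 2 and 3, the line is their mean and the dashed line the cortical mean. Nuclei with Ebf1 and Prdm6 are low in all panels, and inhibitory nuclei are highest for group 2.

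The small subgroups entered no test. Inhibitory nuclei (69 nuclei, gated by Slc6a5, Slc32a1, Gad1 and Gad2) read 64.7, 85.0 and 68.0 CPM of Hox RNA in all. Group 2 read 19.0, 22.7 and 22 CPM in them (21.2 ± 1.94, 20 UMIs) and group 4 read 3.81, 0 and 10.0 CPM (6 UMIs). After thinning, 3 of 24, 0 of 8 and 3 of 35 inhibitory nuclei of replicates 1, 2 and 3 had a group 2 UMI. Hoxb2 carried nearly all of that group 2 signal, at 19.0, 17.0 and 20.0 CPM (18.7 ± 1.53, 18 UMIs), above each library of every other subgroup. The value of replicate 2 comes from only 8 nuclei. How many of all genes show such a gap was not computed. Group 3 was at 46.7 CPM in inhibitory nuclei. Serotonergic nuclei (24 nuclei, 16 Hox UMIs) read 111, 79.4 and 40.1 CPM, a range too wide to place them. Noradrenergic nuclei (22 nuclei) had no Hox UMI in any library, which allows up to 8.98 CPM in all (3 counts over the subgroup), and a share of nuclei of up to 13.6%. The locus coeruleus, the main noradrenergic nucleus, arises in front of the Hox territory. Ungrouped nuclei read 43.4, 52.1 and 50.9 CPM (48.8 ± 4.73) and held 186 CPM of summed cortical markers, above the grouped nuclei. The part of those markers in their Hox level was not tested.

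Other transcripts of the Hox clusters were higher in the hindbrain too. Of 12 in the files 4 passed the filter, and all 4 were called higher in the hindbrain against the mean of the other types (3.52% of all genes tested were). As for the genes, the filter can be passed through the hindbrain sums alone. Hotairm1, a noncoding RNA of cluster A, read 8.84, 9.92 and 12 CPM in hindbrain nuclei (10.2 ± 1.58; edgeR adjusted p = 3.86e-06). Hoxb3os, antisense to Hoxb3 and Hoxb2, read 4.36, 5.11 and 6.54 CPM (edgeR adjusted p = 0.000101). Both had no UMI in hypothalamic nuclei, and their pooled hindbrain levels were at least 4.92-fold and 2.58-fold higher (3 counts over the type). Hoxaas2 read 4.36, 7.41 and 7.13 CPM, with a log2 fold change of 3.09 (edgeR adjusted p = 2.15e-05), and Hoxaas3 read 5.25, 6.69 and 6.54 CPM, with 2.69 (edgeR adjusted p = 7.22e-05). Both overlap Hoxa3. They had 1 and 2 hypothalamic UMIs, and the ratios of their pooled hindbrain to hypothalamic levels were 9.35 (exact 95% counting interval 1.66 to 371) and 4.45 (1.22 to 37.0). In the subgroups Hoxaas3 was called higher with Angpt1 and Col25a1 (log2 fold change 1.40, edgeR adjusted p = 0.0173) and lower with Ebf1 and Prdm6 (edgeR adjusted p = 1.8e-05), on 2 UMIs in the latter.

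Calls among cofactors, regulators and chromatin genes of the Hox pathway are set beside those of all genes tested, of which 3.52% were higher and 1.29% lower against the mean of the other types. Meis1 and Meis2 were left out of the TALE list because they are gate genes. Of 7 TALE cofactors tested, 1 was called higher against the mean of the other types and none lower. This was Pbx3, at 507, 327 and 460 CPM in hindbrain nuclei against a mean of 83.6 CPM in cortical, 423 CPM in red nucleus and 128 CPM in hypothalamic nuclei (log2 fold change 1.25, edgeR adjusted p = 6.73e-10). The red nucleus mean of Pbx3 lay within the range of the hindbrain libraries. Within the hindbrain Pbx3 was higher with Angpt1 and Col25a1 (log2 fold change 1.24), against a mean that includes the low subgroup with Ebf1 and Prdm6. It fell by 2.20 with Ebf1 and Prdm6. Hox genes were called in both subgroups, but 1 of the 7 TALE genes was also called higher with Pard3b, where no Hox gene was. Against cortical nuclei 1 of the 7 was higher and 1 lower. The median log2 fold change of the 7 TALE genes against the mean of the other types was 0.21. None of the 7 upstream regulators tested of 18 (retinoic acid receptors, Cdx genes and others; median log2 fold change -0.11) and none of the 18 Polycomb and demethylase genes tested of 19 (median -0.01) was called in edgeR against the mean of the other types. Against cortical nuclei, the retinoid receptor Rxrg was higher (log2 fold change 3.52) and the retinoic acid receptor Rara lower (-1.73). Of factors of rostral identity 6 of 12 were tested, and 1 of them, Irx2, was called higher against the mean of the other types (edgeR adjusted p = 0.00195), with no hypothalamic UMI. Against cortical nuclei the forebrain factors Emx1 and Otx1 were lower in the hindbrain (log2 fold changes -3.14 and -2.33), and En1 and Irx2, factors of the midbrain and rostral hindbrain, were higher (2.17 and 3.51).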

How the data were processed

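UMI counts per gene and barcode of 3 libraries are as deposited by the authors. They were made with Cell Ranger for the mouse build mm10, with version 6.1.1 per the file headers and 7.0.1 per the submitters' processing notes, and it is unsettled which of them made the counts. The sources used here do not give whether introns or strand were used or how barcodes were chosen. The libraries held 27435221, 74287112 and 60490064 UMIs in 2710, 11094 and 3713 barcodes.

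Kept nuclei were typed as the report states. Scrublet (scanpy 1.11.5, expected rate 6%) marked 0.560%, 2.13% and 1.45% as doublets, which were kept in the main values. Counts summed per library and type were fitted with edgeR 4.0.16 (R 4.3.3) with TMM, filterByExpr and the library as a block. All types of a library come from the same library, and in the 18 same-library pairs of types the deviations from the type means correlated at 0.176 to 0.826 over 5382 genes. The fit by subgroup used 18 sums. A nucleus joined the marker set with the highest ratio to the hindbrain mean, at a ratio of at least 2, 150 CPM and 2 UMIs. CPM of a type are UMIs of a gene divided by UMIs of all genes in the summed nuclei, times 1000000. No column of per-sample values was left unused. The fits were tested on simulated data. DESeq2 1.42.0, other scalings, filters, gates and left-out libraries were the alternatives.

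Every member called against the mean of the other types or in a subgroup was named with its libraries. Other members with at least 30 hindbrain UMIs were named with their range, and the rest were counted. Of each pathway list, called genes were named, at most 6. The members and lists were chosen with earlier results of these data known. A few further genes are not reported here.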

Additional observations from a re-analysis of the deposited data

Results flagged for a closer look

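Replicate 2 had 8325 barcodes outside the limits on genes and mitochondrial UMIs, with a median of 679 UMIs, which no comparison used. Hox genes were present in them, at 189 UMIs or 32.1 CPM (exact 95% Poisson interval 27.7 to 37.0), of which groups 5 to 13 gave 40 UMIs or 6.79 CPM. These barcodes were listed here because the signal lies above the limit that a count of 0 allows. Replicate 3 had 134 such barcodes with 2 Hox UMIs, and replicate 1 had 31 with none, which allows up to 86.0 CPM. What these barcodes hold was not tested.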

How the results depend on the processing

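The 6 Hox genes called higher in the hindbrain against the mean of the other types kept their call under all 11 alternatives run (no filter, DESeq2 size factors, DESeq2, no replicate block, each library left out, doublets removed, at least 2000 genes, a gate of 400 CPM, and, chosen after seeing the data, hindbrain nuclei of a marker subgroup only). No alternative run reversed a direction. Against red nucleus nuclei, leaving out a library gave 2 to 4 calls in place of 5. Against hypothalamic nuclei, 3 calls became 1 with DESeq2 size factors, 1 with DESeq2 and 0 to 1 with a library left out. Between red nucleus and cortical nuclei, 0 calls became 1 with no filter (Hoxc11, chosen after its value was seen), and also 1 (Hoxa3) with DESeq2, with no replicate block, with doublets removed and with hindbrain nuclei of a marker subgroup only. The 8 subgroup calls became 4 with a marker ratio of at least 3, 1 without the subgroup with Ebf1 and Prdm6 (chosen after seeing the data), and 3 to 9 with a library left out. With no replicate block the calls were 6 against the mean of the other types, 6 against cortical, 4 against red nucleus, 2 against hypothalamic nuclei and 8 in the subgroups. Among the calls by leaving out a library was Hoxd3 in nuclei with Reln and Nxph1, without replicate 3. The share of hindbrain nuclei with a Hox UMI was 24.7% when thinned to 5000 UMIs, and the summed hindbrain level ranged from 53.6 to 59.6 CPM over 7 alternatives. The precision of the hypothalamic and red nucleus values is limited by their 25 and 54 Hox UMIs, from 149 and 332 nuclei. The causes of these changes were not tested.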
